A study of Ovis aries with 6 samples.

Results

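The transcripts described here encode the core of the PI3K, AKT and mTOR pathway and the proteins that restrain it. They were chosen by name: of 32 listed genes, 29 had a row among the 26425 rows of the deposited gene table, and PIK3R2, AKT1 and GSK3A had no matching row and were not analysed here. The study sequenced RNA from sheep cells of the adipose stromal vascular fraction, the mixed fraction of fat tissue that holds adipocyte precursors. The 3 MEOX2 libraries came from cells made to overexpress the homeobox transcription factor MEOX2, and the 3 NC libraries from the control cells. Table columns of both groups carry the prefix pHBLV, and the labels name no strain, age, promoter, time or culture stage. No label says whether replicates came from separate animals or cultures, so p-values measure the spread between these libraries, which may be technical. The series title names the PI3K/AKT pathway as the route by which MEOX2 regulates fat cell differentiation, and the comparison made here asks whether the transcripts of that pathway differed.

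In this pathway, growth factor receptors recruit PI3K, which phosphorylates a membrane lipid; that lipid brings AKT and its activating kinase PDPK1 to the membrane. AKT relieves the block that the TSC complex places on the small GTPase RHEB, and RHEB switches on mTOR complex 1, which drives protein synthesis through the S6 kinases and 4E-BP1. In fat tissue this is the main route of insulin action and is needed for adipocyte formation. Much of its control acts by phosphorylation, which RNA sequencing does not measure.

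The labels check out for the overexpressed gene. MEOX2 stood at 152.7, 107.7 and 138.4 FPKM in the MEOX2 libraries, against 10.8, 10.1 and 9.03 FPKM in the NC libraries. FPKM is the fragment count scaled by gene length and by a constant for each library. Recovered reads totalled 11772772 to 12230863 per library. NC library 3 stood apart from the others on the second principal component (22.2% of variance). The labelled cell type is adipocyte. Of 6 adipocyte markers LEP had 0 reads in all libraries, and 4 of the 5 tested were lower with MEOX2; their summed level was 116.8 to 140.6 FPKM in MEOX2 and 283.9 to 338.0 FPKM in NC libraries. The 8 stromal progenitor markers summed to 15277 to 16886 FPKM in MEOX2 and 13959 to 14626 FPKM in NC libraries, with none called. That sum is mostly COL1A1 and DCN; CD34 and ENG had lower values without overlap (ratios 0.467 and 0.803), PDGFRA, LUM and DCN higher ones, and THY1, PDGFRB and COL1A1 overlapped. Of 4 tested smooth muscle and pericyte markers CNN1 and CSPG4 were called higher, and the list summed to 575.1 to 612.8 FPKM in MEOX2 and 477.4 to 490.2 FPKM in NC libraries. In bulk RNA, fewer cells of a type and less RNA per cell cannot be told apart.

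SGK1, a kinase of the same family as AKT that PDPK1 and mTOR complex 2 activate, was the member whose transcript fell. The rest of the tested pathway, from PI3K subunits to mTOR complex parts and targets, did not reach an adjusted p under 0.05 in either direction. PIK3CD, the p110-delta PI3K catalytic subunit known mainly from leukocytes, had fewer reads in every MEOX2 library than in any NC library; it lay below the filter of the main test, and whether it was called depended on the test. PIK3R1, the main p85 regulatory subunit, was above NC in every MEOX2 library by a small margin that did not survive adjustment.

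Levels spanned a wide range along the pathway. On the FPKM scale DDIT4, a stress-induced protein that restrains mTOR complex 1, was the most abundant member and ranked 44 of all rows. EIF4EBP1 and RHEB followed at ranks 195 and 892. The rows of these 3 genes are short, at 690, 363 and 507 bases, and FPKM divides by that length. Of the 29 members, 25 averaged at least 1 FPKM over the 6 libraries and entered the test. PIK3CD, INPP5D, PIK3R5 and PIK3CG did not. Of the 25, 14 lay above the median level of the 13121 genes tested.

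**Figure D1:**
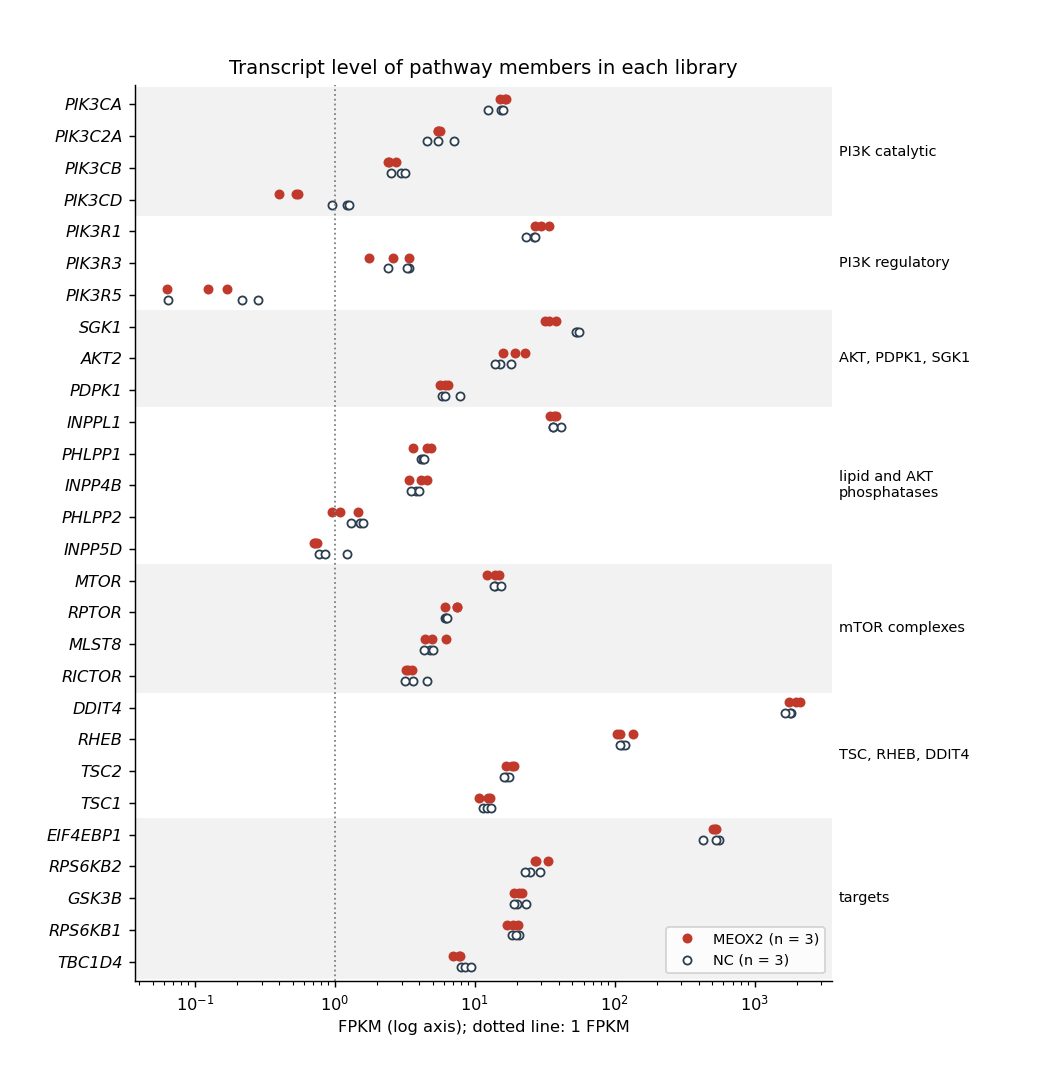
FPKM (log axis) of the 28 members with any reads in each of the 3 MEOX2 libraries (filled, upper) and 3 NC libraries (open, lower), grouped by role; PIK3CG, with 0 reads, is not drawn. DDIT4 lies above 1659 FPKM in all libraries, and the SGK1 and PIK3CD points of the groups stand apart.

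Of the 25 tested members, 1 was called at an adjusted p under 0.05 (limma, Benjamini-Hochberg adjustment over all genes), against 2.67% of all 13121 genes. That 1 of 25 (4%) is close to the background, so the count says nothing particular about the pathway. The call was in the lower direction, for which the background was 1.16%; 0 members were called higher, against 1.51% of genes. At an unadjusted p under 0.05 there were 2 members, SGK1 and PIK3R1, where 13.4% of all genes passed. Limma voom on recovered reads of the same genes called only SGK1 of the 25, against 4.37% of genes. The median log2 change of the members was -0.01 and that of all genes tested -0.00273.

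Of the 3 kinases of the AKT branch, SGK1 was called and AKT2 and PDPK1 were not. SGK1 (ENSOARG00000014710, chromosome 8, 59319492 to 59324974, minus strand; the genome build is not given in the sources used here) had 31.99, 38.1 and 33.8 FPKM in the MEOX2 libraries, against 53.9, 53.1 and 55.7 FPKM in the NC libraries. Every MEOX2 library lay well below every NC library, and the NC values hardly differed among themselves. The means were 34.6 ± 3.15 FPKM in MEOX2 libraries and 54.2 ± 1.29 FPKM in NC libraries (SD, n = 3 each), a ratio of 0.639. The log2(FPKM + 1) change was -0.64 (SE 0.08, 95% interval -0.83 to -0.44), with a limma adjusted p of 0.00770, and it ranked 74 of all tested genes by p. An exact two-sided permutation test over the 6 libraries gave p = 0.1, the smallest value that 3 against 3 can reach.

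The fall of SGK1 rested on 829 to 1565 reads per library. It passed the threshold in all 18 alternative settings, with log2 changes from -0.71 to -0.58 and limma adjusted p values up to 0.0447. Without NC library 3 the change was -0.62 (limma adjusted p = 0.0212). The summed adipocyte markers given above differed between the groups in the same direction, and the part of adipocyte content in the SGK1 result was not tested.

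AKT2, the AKT form known for insulin-stimulated glucose uptake, had 22.9, 19.4 and 15.8 FPKM in MEOX2 libraries, against 15.1, 18.04 and 14.1 FPKM in NC libraries. The groups overlapped, since MEOX2 library 3 lay below NC library 2. The log2 change was 0.28 (SE 0.14, limma adjusted p = 0.462), and its 95% interval, -0.05 to 0.60, does not exclude a rise of up to 1.51-fold. A protein-coding row without a name, at 0 FPKM in these libraries, overlaps the span of AKT2 on the same strand over 1038 bases. Whether exons overlap was not examined, so the AKT2 level carries that uncertainty. PDPK1, the kinase that activates AKT and SGK1, averaged 6.09 ± 0.377 FPKM in MEOX2 libraries and 6.65 ± 1.09 FPKM in NC libraries (SD, n = 3 each). Summed over AKT2, PDPK1 and SGK1, the level was 55.3 to 64.0 FPKM in MEOX2 libraries and 74.9 to 77.6 FPKM in NC libraries. The lower sum with MEOX2 restates the fall of SGK1, as AKT2 averaged 19.4 FPKM in MEOX2 and 15.7 FPKM in NC libraries. SGK1 was the most abundant of these kinases in both groups.

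**Figure D2:**
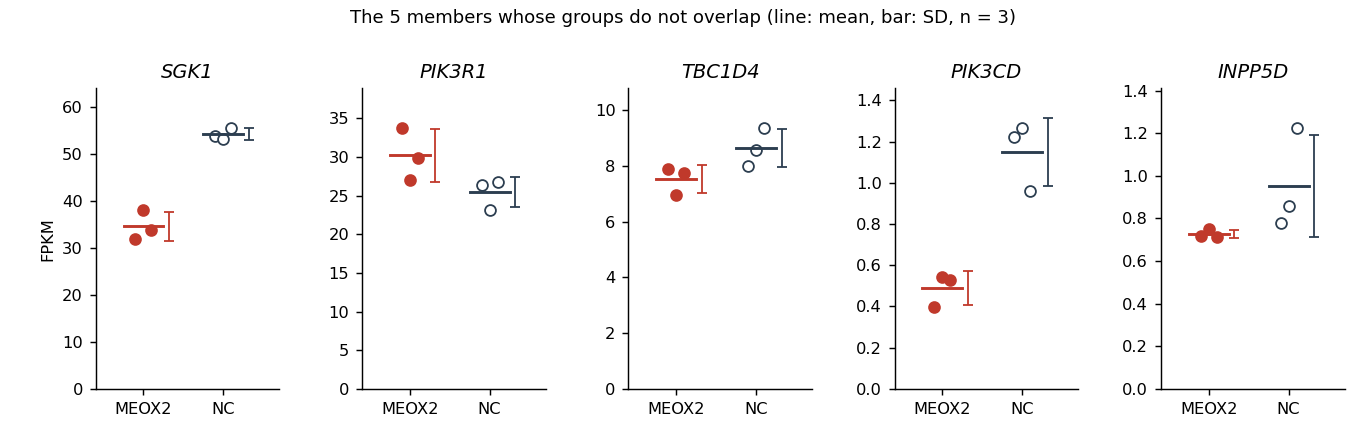
FPKM of the 5 members whose 3 MEOX2 libraries (filled, left) do not overlap the 3 NC libraries (open, right), with the mean as a line and the SD as a bar; axes start at 0. SGK1 has the widest gap relative to its spread, and PIK3CD and INPP5D lie near 1 FPKM. Of the 13121 genes tested, 18.9% had groups without overlap.

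Of the 25 tested members, 3 had groups that did not overlap (SGK1, PIK3R1 and TBC1D4), against 18.9% of all genes tested. Higher values without overlap were found for 1 member, against 9.60% of genes, and lower ones for 2, against 9.33% of genes. PIK3CD and INPP5D, below the filter, also had lower values without overlap, which made 5 of the 29 members with a row. The shares above cover tested genes only, and none was computed for rows below the filter. These counts single out no member.

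Among PI3K catalytic subunits, PIK3CA (p110-alpha), the form through which insulin mostly signals, was the main transcript. It had 16.6, 16.5 and 15.1 FPKM in MEOX2 libraries, against 15.4, 12.5 and 15.9 FPKM in NC libraries. These ranges overlapped, with a log2 change of 0.14 (SE 0.11, limma adjusted p = 0.664). PIK3C2A, a class II enzyme of membrane traffic, had means of 5.52 ± 0.0844 FPKM with MEOX2 and 5.72 ± 1.30 FPKM in NC (SD, n = 3 each). A row named RPL37, on the same strand and at a mean of 470.8 FPKM, overlaps part of the span of PIK3C2A. Whether exons overlap was not examined, so some reads of that region may not be assigned with certainty.

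PIK3CB (p110-beta) was at 2.44, 2.76 and 2.39 FPKM in MEOX2 libraries, against 2.96, 2.51 and 3.19 FPKM in NC libraries. NC library 2 fell inside the MEOX2 range (log2 change -0.14, SE 0.13, limma adjusted p = 0.743). PIK3CG, the leukocyte form p110-gamma, had 0 reads in all 6 libraries, which allows up to 3 reads per library.

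PIK3CD (ENSOARG00000007664, chromosome 12, 41923922 to 41973979) had 0.397, 0.544 and 0.530 FPKM in MEOX2 libraries, against 1.22, 1.27 and 0.959 FPKM in NC libraries. All MEOX2 libraries lay below all NC libraries, on 16, 24 and 23 reads with MEOX2 and 52, 55 and 42 reads in NC. The ratio of means was 0.426. With a mean below 1 FPKM the gene was outside the main test. Tested without that filter it was not called (log2(FPKM + 1) change -0.53, limma adjusted p = 0.0721), whereas limma voom on recovered reads, over the 15540 rows with at least 10 reads, called it (log2 change -1.20, SE 0.27, adjusted p = 0.00894). Of those rows 3.84% were called. That setting was chosen after the values were seen, and without MEOX2 library 1 the voom adjusted p was 0.0605.

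Leukocyte markers bear on PIK3CD, INPP5D, PIK3R5 and PIK3CG, which blood cells express most. Of 13 such markers 12 had a row, 6 were tested and none was called. They summed to 139.8 to 155.5 FPKM in MEOX2 and 133.6 to 138.1 FPKM in NC libraries, most of it CD14, which stromal cells can also express. The pan-leukocyte marker PTPRC had at most 2 reads in any library. CD163, a macrophage receptor, averaged 1.38 ± 0.0442 FPKM in MEOX2 libraries and 2.32 ± 0.420 FPKM in NC libraries (SD, n = 3 each; limma adjusted p = 0.170). The other 5 tested markers had log2 changes of -0.29 for CD68, 0.15 for CD14, 0.35 for LAPTM5, 0.29 for CORO1A and 0.10 for LCP1, and the median of the 6 was 0.13. The part of such cells in the PIK3CD result was not tested.

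The regulatory subunits hold the catalytic subunits stable and link them to receptors. PIK3R1 (chromosome 16, 11385141 to 11470669) had 33.8, 27.0 and 29.9 FPKM in MEOX2 libraries, against 26.3, 23.2 and 26.8 FPKM in NC libraries. The lowest MEOX2 library lay just above the highest NC library. The log2 change was 0.24 (SE 0.10, 95% interval 0.0016 to 0.47), with an unadjusted p of 0.0487 and an adjusted p of 0.366 by limma. PIK3R3, the p55-gamma form, had 1.77, 2.60 and 3.41 FPKM in MEOX2 libraries, against 3.42, 3.29 and 2.39 FPKM in NC libraries, on 28 to 58 reads. PIK3R5, the partner of PIK3CG, had 5, 4 and 2 reads in MEOX2 libraries and 2, 9 and 7 reads in NC libraries, too few to show a difference.

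**Figure D3:**
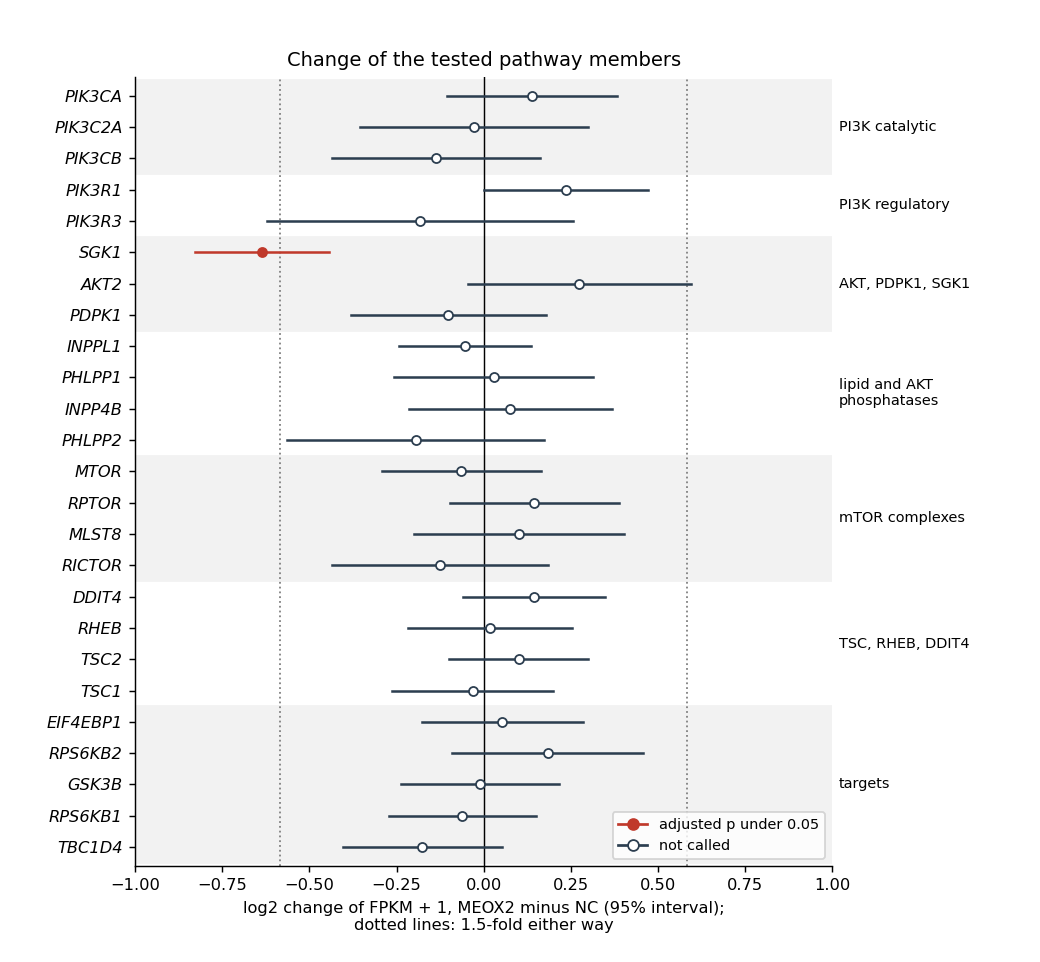
Log2 change of FPKM + 1, MEOX2 minus NC, with 95% intervals for the 25 tested members; dotted lines mark 1.5-fold either way. SGK1 (filled) is the call, at -0.64; the intervals of PIK3R3 and AKT2 pass the 1.5-fold lines as well, and the other 22 lie between them.

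None of the brakes of the pathway, the phosphatases that remove the PI3K lipid signal or the AKT phosphate, was called. INPPL1 (SHIP2), which dephosphorylates the PI3K lipid product, was the main one, at 38.2, 34.7 and 37.0 FPKM in MEOX2 libraries, against 36.6, 41.2 and 36.5 FPKM in NC libraries. Its groups overlapped (log2 change -0.05, 95% interval -0.24 to 0.14). INPP5D (SHIP1), its blood cell counterpart, had 0.717, 0.749 and 0.714 FPKM in MEOX2 libraries, against 0.777, 0.857 and 1.23 FPKM in NC libraries. All MEOX2 libraries lay below all NC libraries, on 28 to 52 reads, and neither a limma fit without the filter (adjusted p = 0.651) nor limma voom on recovered reads (adjusted p = 0.605) called it.

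INPP4B, a lipid phosphatase of the next step in that breakdown, averaged 4.05 ± 0.590 FPKM in MEOX2 libraries and 3.77 ± 0.269 FPKM in NC libraries. The AKT phosphatase PHLPP1 had 4.36 ± 0.677 FPKM with MEOX2 and 4.23 ± 0.101 FPKM in NC (SD, n = 3 each). PHLPP2, its sparse paralogue, had 0.950, 1.09 and 1.46 FPKM in MEOX2 libraries, against 1.51, 1.602 and 1.30 FPKM in NC libraries. MEOX2 library 3 overlapped the NC range (log2 change -0.19, SE 0.16, limma adjusted p = 0.692). Summed, the 5 phosphatases reached 45.3 to 48.2 FPKM in MEOX2 and 46.8 to 51.4 FPKM in NC libraries, a ratio of means of 0.968.

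None of the 4 mTOR complex parts was called, and their 95% intervals lay within 1.5-fold either way. MTOR, the kinase of both complexes, had 14.0, 12.2 and 15.0 FPKM in MEOX2 libraries, against 13.9, 13.8 and 15.5 FPKM in NC libraries, and its 95% interval for the log2 change ran from -0.29 to 0.16. RPTOR, which defines complex 1, had 7.49, 6.13 and 7.45 FPKM in MEOX2 libraries, against 6.12, 6.27 and 6.30 FPKM in NC libraries. MEOX2 libraries 1 and 3 were above all NC libraries and MEOX2 library 2 was among them (log2 change 0.15, SE 0.11, limma adjusted p = 0.635). RICTOR, which defines complex 2 and so the route to SGK1, had 3.34, 3.54 and 3.24 FPKM in MEOX2 libraries, against 3.64, 3.19 and 4.58 FPKM in NC libraries, whose wide range took in all MEOX2 values. MLST8, a subunit of both complexes, had 5.18 ± 0.929 FPKM with MEOX2 and 4.72 ± 0.353 FPKM in NC (SD, n = 3 each). The 4 parts summed to 26.8 to 31.1 FPKM in MEOX2 and 27.6 to 31.4 FPKM in NC libraries, a ratio of 1.006.

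Upstream of mTOR, TSC1 and TSC2 form the complex that keeps RHEB inactive. TSC2 had 19.2, 16.6 and 18.5 FPKM in MEOX2 libraries, against 16.7, 17.5 and 16.2 FPKM in NC libraries. The groups overlapped through MEOX2 library 2 (log2 change 0.10, SE 0.09, limma adjusted p = 0.709). TSC1 had 12.03 ± 1.19 FPKM with MEOX2 and 12.3 ± 0.845 FPKM in NC (SD, n = 3 each). A row without a name on the other strand, at a mean of 8.73 FPKM, overlaps the span of TSC2 by 1048 bases. Whether exons overlap was not examined. The strand setting of the counting is not given, so reads there may not be told apart. RHEB had 104.5, 135.2 and 108.6 FPKM in MEOX2 libraries, against 112.9, 119.6 and 109.4 FPKM in NC libraries. MEOX2 library 2 was the highest of the 6, while the other pair of MEOX2 libraries lay below all NC libraries, and the log2 change was 0.02 (SE 0.10).

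DDIT4 had 1755, 2125 and 1972 FPKM in MEOX2 libraries, against 1828, 1792 and 1659 FPKM in NC libraries, on 13785 to 18246 reads. MEOX2 libraries 2 and 3 were above all NC libraries and MEOX2 library 1 was among them. The log2 change was 0.15 (SE 0.09, 95% interval -0.06 to 0.35, limma adjusted p = 0.556). A rise above 1.27-fold lies outside that interval, which rests on the spread between libraries.

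Among the targets, EIF4EBP1 (4E-BP1), the translation repressor that mTOR complex 1 inactivates, had 530.6, 507.4 and 520.0 FPKM in MEOX2 libraries, against 556.7, 527.5 and 426.5 FPKM in NC libraries. NC library 1 was the highest of the 6 and NC library 3 the lowest, so the MEOX2 values lay inside the NC range (log2 change 0.05, SE 0.10). RPS6KB2 (S6K2) had 33.5, 27.5 and 26.8 FPKM in MEOX2 libraries, against 24.8, 29.4 and 22.7 FPKM in NC libraries. Its groups overlapped through NC library 2 (log2 change 0.18, SE 0.12, limma adjusted p = 0.586). RPS6KB1 (S6K1) averaged 18.8 ± 1.69 FPKM in MEOX2 libraries and 19.7 ± 1.07 FPKM in NC libraries, and GSK3B, a kinase that AKT inhibits, 20.6 ± 1.36 and 20.8 ± 2.25 FPKM in MEOX2 and NC libraries (SD, n = 3 each).

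TBC1D4 (AS160), the AKT substrate that controls delivery of the glucose transporter to the surface, had 7.88, 6.97 and 7.75 FPKM in MEOX2 libraries, against 8.01, 8.57 and 9.37 FPKM in NC libraries. All MEOX2 libraries lay below all NC libraries, by a gap smaller than the spread within either group. The log2 change was -0.18 (SE 0.10, 95% interval -0.40 to 0.05), not called by limma (adjusted p = 0.518).

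Of the 24 tested members that were not called, log2 changes ran from -0.19 to 0.28 and limma adjusted p values started at 0.366. That a test misses its threshold does not show that a level was the same; the intervals give the bounds. The 95% interval lay within 1.5-fold either way for 22 of the 25 members (88%), against 80.9% of all genes tested. The exceptions at 1.5-fold were SGK1, AKT2 and PIK3R3.

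Paralogue and partner shares, each gene's percent of the summed FPKM of its family in a library, were compared for 8 families and 10 shares. In class I PI3K, PIK3CA made up 85.4%, 83.3% and 83.7% of the sum in MEOX2 libraries, against 78.6%, 76.7% and 79.3% in NC libraries. PIK3CB held 12.5%, 13.9% and 13.3% with MEOX2, against 15.1%, 15.5% and 15.9% in NC. PIK3CD held 2.04%, 2.74% and 2.95% with MEOX2, against 6.25%, 7.80% and 4.79% in NC. For these 3 shares the groups did not overlap, with PIK3CA higher by 5.96 percentage points and PIK3CB and PIK3CD lower, with differences of -2.26 and -3.70 points. Each gave p = 0.1 in an exact two-sided permutation test, the smallest possible with 3 against 3, and 0.333 after Benjamini-Hochberg adjustment over the 10 shares. Shares of 1 sum depend on each other; with PIK3CD left out of the sum, PIK3CA was higher by 2.94 points, again with an exact permutation p of 0.1.

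Other shares overlapped between groups. PIK3R1 made up 91.995% ± 2.72 of PIK3R1 plus PIK3R3 with MEOX2 and 89.3% ± 2.23 in NC (SD, n = 3 each). INPPL1 was 98.1% ± 0.145 of the SHIP pair with MEOX2 and 97.5% ± 0.690 in NC.

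The mTOR branch showed the same overlap. RPTOR made up 67.4% ± 3.50 of RPTOR plus RICTOR with MEOX2 and 62.3% ± 4.23 in NC, TSC1 39.9% ± 1.155 and 42.3% ± 2.24 of the TSC pair in MEOX2 and NC libraries, and RPS6KB1 39.3% ± 3.69 and 43.6% ± 4.30 of the S6 kinases (SD, n = 3 each). PHLPP1 made up 78.6% ± 6.57 of the PHLPP pair with MEOX2 and 74.2% ± 2.29 in NC, and EIF4EBP1 86.1% ± 0.834 of EIF4EBP1 plus EIF4EBP2 with MEOX2 and 85.8% ± 1.03 in NC. Exact permutation p values of the 7 shares outside class I PI3K lay at 0.2 or above.

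**Figure D4:**
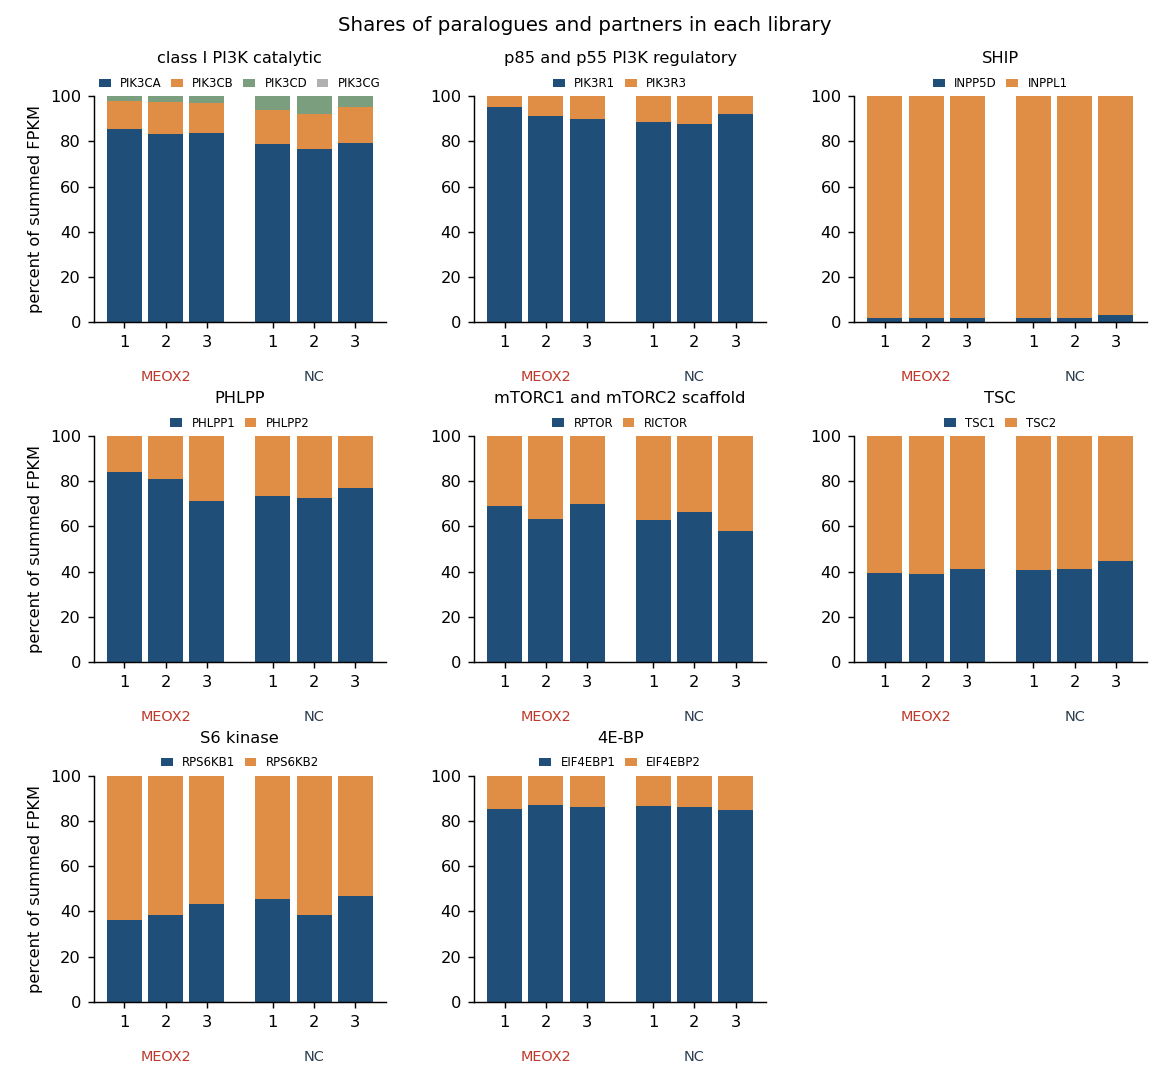
Percent of the summed FPKM of each family held by its members in the 3 MEOX2 libraries (left) and 3 NC libraries (right). PIK3CA holds 83.3% to 85.4% of class I PI3K with MEOX2 and 76.7% to 79.3% in NC; the other 7 families overlap between groups.

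By position, the members lay on 16 chromosomes. TSC2, MLST8 and PDPK1 are neighbours on chromosome 24 (1575200 to 1606649, 1717104 to 1721314 and 2046607 to 2079956, all plus strand) and were not called, with log2 changes of 0.10, 0.10 and -0.10. MTOR and PIK3CD lie near each other on chromosome 12, where MTOR (40533385 to 40657651) had a ratio of 0.956 and PIK3CD of 0.426.

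Around the core, 10 further lists of pathway genes were examined, with 99 of 124 genes tested. FOXO4 was the only gene called, and it was higher; 98 were not called, and 7 (7.07%) had an unadjusted p under 0.05, against 13.4% of all genes. FOXO4, a forkhead factor that AKT phosphorylation keeps out of the nucleus, had 44.8, 40.2 and 42.7 FPKM in MEOX2 libraries, against 13.2, 14.4 and 14.2 FPKM in NC libraries (log2 change 1.54, SE 0.08, limma adjusted p = 6.02e-05). The other 9 AKT substrates tested, FOXO1 and FOXO3 among them, were not called. SGK2 had at most 1 read.

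Of 11 tested phosphoinositide phosphatases outside the members, INPP5B and INPP5K ranked first by p; their log2 changes were 0.22 and 0.24 (limma adjusted p = 0.258 and 0.354). Their list had the highest median of the 9 lists with at least 7 tested genes, 0.10. Among 11 other phosphoinositide kinases PIK3C2B (0.28) and PIP5K1C (0.17) came first. Of 10 adaptors between receptors and PI3K, IRS1, the main insulin receptor substrate, had a log2 change of -0.30 (limma adjusted p = 0.282) and the insulin receptor inhibitor GRB10 of 0.19 (0.271).

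In the 22 tested genes of the amino acid branch, SESN3, a sestrin that restrains mTOR complex 1, had a log2 change of -0.32 (limma adjusted p = 0.215), and LAMTOR3 of -0.16. Of 12 translation outputs, EIF4E, the cap-binding protein that 4E-BP1 blocks, had 0.21 (limma adjusted p = 0.302) and EEF2K 0.17. TTI2 (-0.19) and TBC1D7 (0.06) led the 7 mTOR accessory proteins, STK11 (0.08) and CAB39 (-0.09) the 8 genes of the AMPK branch, and TRIB1 (-0.18) and PPP2CA (0.11) the 8 stress and feedback brakes, all as log2 changes and none called.

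**Figure D5:**
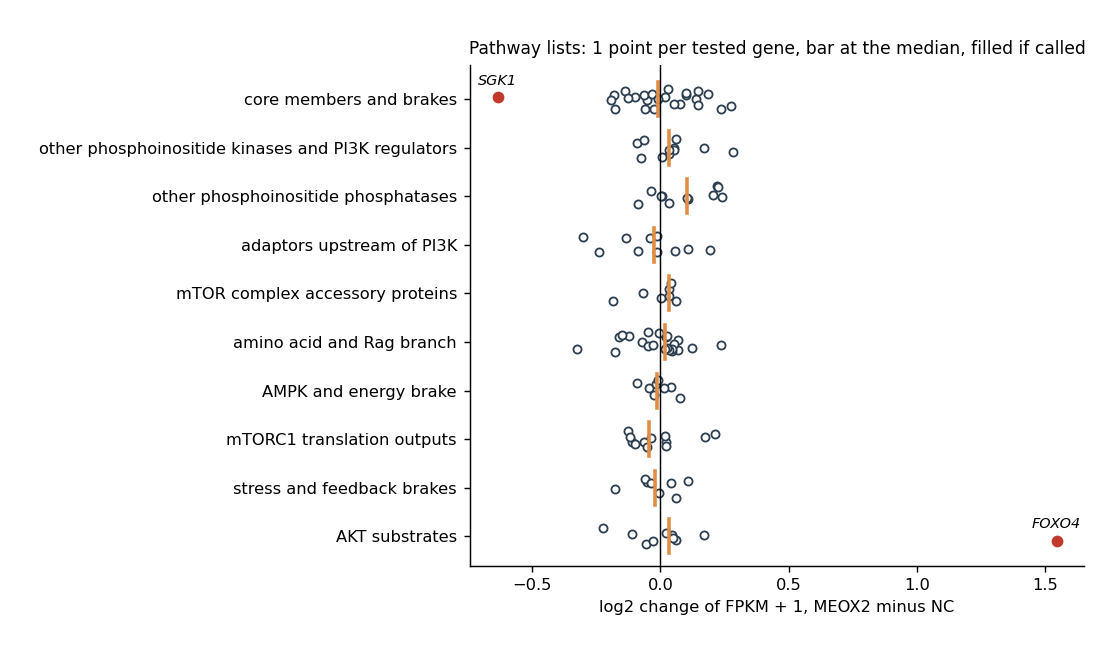
Log2 change of FPKM + 1, MEOX2 minus NC, of each tested gene of the core list (top) and of 9 further pathway lists with tested genes, with the median as a bar and called genes filled. SGK1 at -0.64 and FOXO4 at 1.54 are the calls; list medians with at least 7 genes lie between -0.05 and 0.10.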

How the data were processed

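RNA libraries were made with the NEBNext Ultra kit from TRIzol extracts, per the labels' protocols. The tools, without roles, were per the submitters' processing notes DESeq2 1.20.0, featureCounts 1.5.0-p3, HISAT2 2.0.5, fastp and CASAVA 1.8. Neither genome build nor strandedness is stated. The authors deposited FPKM values per gene; multiplied by gene length 100% of nonzero values gave whole reads after division by a library constant (tolerance 0.001 read). These are the recovered reads. The library constants were proportional to median-of-ratios size factors of these reads. Relative to the read totals, the library sizes they imply ran from 0.967 to 1.019.

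Genes averaging 1 FPKM or more were fitted as log2(FPKM + 1) with limma 3.58.1 in R 4.3.3 (intensity trend, no covariate, 3 MEOX2 against 3 NC libraries), with Benjamini-Hochberg adjustment over all 13121 genes and a threshold of 0.05. This scale understates changes of low genes. Shares and sums used FPKM in Python 3.11.15; exact permutation tests ran over libraries. The fit was tested on simulated data. The members and lists were chosen with earlier results of these data known. Genes given in full were the members with the 10 smallest p, those under the filter and the 4 most abundant, plus others for their role; of each further list, called genes or the 2 with the smallest p. Alternatives were other pseudocounts, filters, scalings and variance models, limma voom, a replicate block and each library left out. Voom on rows of at least 10 reads, the remark on CD163 and the glucocorticoid and SGK1 substrate lists were chosen after values were seen. Read counts bound low genes for counting error only. 1 gene of the further lists, and the family share it enters, are not reported here.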

Additional observations from a re-analysis of the deposited data

How the results depend on the processing

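SGK1 kept its call and direction in all 18 settings, and no other member of the 25 was called in any of them. The count of all called genes (350) was 194 without a filter, 574 with limma voom and 597 with limma voom on rows of at least 10 reads, where PIK3CD made 2 members called; it ranged from 117 to 276 with a library left out, and the count of members then stayed at 1. With only members of at least 1 FPKM in the class I PI3K sum, the share differences were 2.94 points for PIK3CA and -2.94 for PIK3CB, since PIK3CD left the sum. For PIK3CD on recovered reads the log2 change ran from -1.33 to -1.07 over the libraries left out, with voom adjusted p values up to 0.0605.

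Signs of 11 uncalled members turned when a library was left out, with log2 changes from -0.015 to 0.19 for MLST8, -0.045 to 0.13 for PHLPP1, -0.10 to 0.089 for RHEB, -0.12 to 0.00259 for RPS6KB1, -0.12 to 0.013 for MTOR, -0.082 to 0.045 for TSC1, -0.070 to 0.071 for GSK3B, -0.083 to 0.00370 for INPPL1, -0.062 to 0.13 for EIF4EBP1, -0.17 to 0.012 for PDPK1 and -0.16 to 0.12 for PIK3C2A; the cause was not tested. Others that were not called kept their sign but moved, from 0.036 to 0.20 for PIK3CA, 0.15 to 0.40 for AKT2 and 0.082 to 0.22 for DDIT4. With the replicate block, 242 genes were called and SGK1 changed by -0.64 (limma adjusted p = 0.0188). Libraries of the same number did not deviate together (correlations -0.07, 0.02 and -0.00417 for numbers 1 to 3). With 3 libraries per group, such correlations cannot exclude a shared origin behind the numbers. Depth limits PIK3CD, INPP5D, PIK3R5, PHLPP2 and PIK3R3, with at most 78 reads each.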

Other observations

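SGK1 and DDIT4 are known as genes that glucocorticoids induce. Of these, SGK1 was lower with MEOX2, and DDIT4 was not called (log2 change 0.15, limma adjusted p = 0.556). Genes of that response were looked up after the SGK1 values were seen, so their p-values describe them and are no independent test. FKBP5, a chaperone partner of the glucocorticoid receptor, had 117.9, 125.3 and 117.9 FPKM in MEOX2 libraries, against 160.5, 149.2 and 157.9 FPKM in NC libraries (log2 change -0.37, limma adjusted p = 0.0295). PDK4, a fuel-switch kinase, had 3.48, 3.43 and 3.64 FPKM in MEOX2 libraries, against 7.83, 6.38 and 7.83 FPKM in NC libraries (log2 change -0.88, limma adjusted p = 0.00697). These were the 2 called of the 13 genes tested in this list, both lower, where 2.67% of all genes were called. As the list was chosen after SGK1 was seen, no conclusion is drawn from that count. The part of glucocorticoid signalling or of adipocyte content in these values was not tested.

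The glucocorticoid receptor itself, NR3C1, had 48.2, 43.7 and 42.9 FPKM in MEOX2 libraries, against 57.8, 51.8 and 68.0 FPKM in NC libraries. Its groups did not overlap, and it was not called (log2 change -0.38, limma adjusted p = 0.125). TSC22D3, another response gene, averaged 25.9 ± 3.99 FPKM in MEOX2 libraries and 21.2 ± 0.668 FPKM in NC libraries (SD, n = 3 each). It went the other way, with all MEOX2 libraries above all NC libraries, and was not called (log2 change 0.26, limma adjusted p = 0.335). The other 9 had log2 changes from -0.32 for GLUL to 0.05 for KLF15, none called.

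Proteins that SGK1 phosphorylates were looked up in the same way. NDRG1 had 621.5, 626.8 and 609.2 FPKM in MEOX2 libraries, against 742.7, 765.5 and 713.1 FPKM in NC libraries, without overlap (log2 change -0.26, limma adjusted p = 0.0993). NEDD4, NEDD4L and NDRG2 overlapped between groups, with log2 changes of 0.15, 0.01 and -0.00319, and none of the 4 was called.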
